A study of Rattus norvegicus with 24 samples.

Results

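The rows described here are the cytochrome P450 genes of families 2, 3 and 4 in a table of rat lung expression, chosen by name: every gene symbol made of Cyp, a family digit from 2 to 4, a subfamily letter and a number. There were 58 such rows among 30667, of which 38 belong to family 2, 4 to family 3 and 16 to family 4. Names of a pseudogene, an antisense transcript or a form with a further letter fall outside the pattern. The series is described as a rat lung cancer model made with smoky coal, and it holds mRNA sequencing of 24 samples of lung tissue. The smoke of such coal contains polycyclic aromatic hydrocarbons. A title such as G3 pairs 1 of 4 letters (A, B, C, G) with 1 of 6 numbers, so that there are 6 samples of each letter and 4 of each number. All 24 carry the same smoky coal label, and no label gives the meaning of a letter or number, names a control, or states strain, age, dose or time. Nothing says whether the samples came from separate animals, so p-values measure the spread between these samples only.

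P450 enzymes are haem proteins of the endoplasmic reticulum that insert an oxygen atom into their substrates with electrons from P450 reductase. Enzymes of families 2 and 3 act mainly on foreign compounds, steroids and arachidonic acid, and family 4 enzymes mainly on fatty acids and eicosanoids. In rodent lung, club cells of the small airways are known as a main site of P450, and some of these enzymes turn inhaled compounds into reactive products.

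The names of the rows set a limit on every value below. The submitters' processing notes name a mouse genome build, GRCm38, and the aligner STAR, although the samples are from rat. The row names also have mouse form: 43 rows carry the mouse MHC prefix H2-, and 0 carry RT1, the rat prefix, which 67 rat RefSeq symbols have. Of the 58 P450 names, 15 are rat RefSeq symbols, 13 are listed there only as a synonym and 30 match neither. Of the 57 rat RefSeq symbols with the same pattern, 15 are in the table, and 0 of them are Cyp2b genes. A row such as Cyp2b10 or Cyp2f2 is therefore the count at a name taken from mouse, and which rat gene or genes its reads came from cannot be read from the name. Rat and mouse differ most in those P450 subfamilies that have many close copies. All 30667 rows had a mean of at least 0.5 normalized counts. Whether some rat symbols are missing because rows with lower counts were left out is unknown.

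Promoter sequences are shown for 4 genes because Ahrr was low in letter G, and 1 comparison below asks whether P450 rows follow G. The Ahrr product represses the aryl hydrocarbon receptor, which senses polycyclic aromatic hydrocarbons. The core of the DNA element bound by that receptor with its partner ARNT is GCGTG. Each line gives the 250 bases before the gene's start in rat RefSeq (build GRCr8), 5′ to 3′ along the gene, with every GCGTG or its reverse complement CACGC in capitals. Cyp4b1 (chr5:134393117-134393366, minus strand) is the row with the highest values. Cyp2u1 (chr2:222540990-222541239, minus strand) is the P450 row of these families with the most matches. Cyp1b1 (chr6:21094315-21094564, plus strand) and Ahrr (chr1:30821969-30822218, plus strand) are receptor targets given for comparison.
Cyp4b1: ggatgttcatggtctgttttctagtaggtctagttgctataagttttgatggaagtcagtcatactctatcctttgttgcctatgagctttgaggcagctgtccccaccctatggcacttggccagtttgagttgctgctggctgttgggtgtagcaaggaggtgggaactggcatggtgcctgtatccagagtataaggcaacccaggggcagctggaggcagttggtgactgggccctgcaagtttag
Cyp2u1: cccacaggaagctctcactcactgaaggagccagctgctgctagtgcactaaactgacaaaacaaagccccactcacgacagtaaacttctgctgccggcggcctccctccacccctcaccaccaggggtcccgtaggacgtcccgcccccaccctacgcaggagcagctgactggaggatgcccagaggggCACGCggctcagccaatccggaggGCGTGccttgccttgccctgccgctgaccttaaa
Cyp1b1: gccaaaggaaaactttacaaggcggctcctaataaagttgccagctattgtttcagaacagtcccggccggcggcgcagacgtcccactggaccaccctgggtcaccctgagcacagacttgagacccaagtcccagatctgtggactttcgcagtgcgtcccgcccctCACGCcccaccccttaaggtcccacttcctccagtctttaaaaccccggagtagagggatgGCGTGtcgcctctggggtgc
Ahrr: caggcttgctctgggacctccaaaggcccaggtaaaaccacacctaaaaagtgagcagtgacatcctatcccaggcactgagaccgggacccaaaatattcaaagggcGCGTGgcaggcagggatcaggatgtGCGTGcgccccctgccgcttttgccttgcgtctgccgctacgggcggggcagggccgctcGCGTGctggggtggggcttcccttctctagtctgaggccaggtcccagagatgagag
Ahrr holds 3 matches, starting 142, 117 and 57 bases before the start, and Cyp1b1 holds 2, at 81 and 20 bases. Cyp1a2, another receptor target, whose sequence is not shown, holds 0. Cyp2u1 holds 2, at 58 and 34 bases, and Cyp4b1 holds 0. A promoter could be matched by symbol or by a single synonym for 25 of the 58 rows, and 6 of these 25 genes had the motif on either strand: Cyp2u1, Cyp2r1, Cyp4f14, Cyp4f39, Cyp4f40 and Cyp4x1. Among all 33469 promoters in the table the share was 25.9%, so the P450 genes were close to the share in all genes. A match describes letters in this window and is not shown to be a binding site.

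The 58 rows together held between 37898 and 103044 normalized counts per sample, with a median of 78158, or 0.0609% to 0.162% of all counts. Most of that lay in few rows. Cyp4b1 and the 5 Cyp2b rows made up 66.5% to 83.0% of the P450 counts of a sample. The 12 rows with the highest medians made up 87.7% to 93.8%. Of the 58 rows, 10 had a mean of at least 1000 normalized counts, 15 a mean of 100 to 1000, 17 of 10 to 100 and 16 of 1 to 10. These values are not divided by length, as no transcript lengths were used here. They rank the rows by reads, not by molecules, and no order of abundance between genes is drawn from them.

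**Figure D1:**
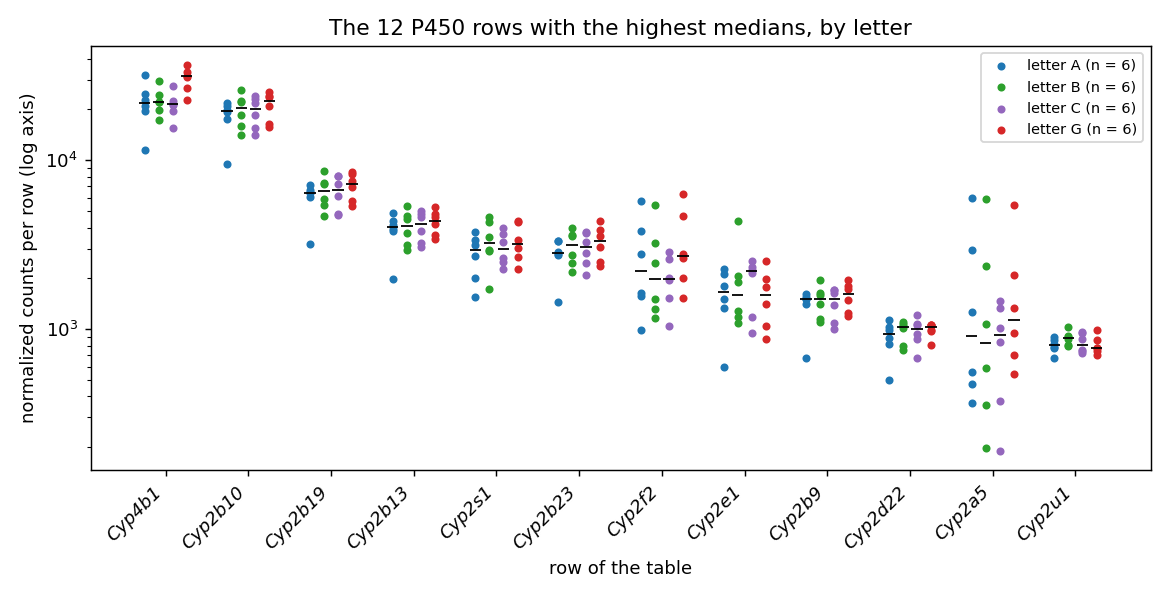
Normalized counts (vertical log axis) of the 12 P450 rows with the highest medians, with 1 point per sample, 6 samples per letter, and a black line at each letter's median. Cyp4b1 and Cyp2b10 lie above the other rows, and the 4 letters overlap in every row shown.

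Cyp4b1, which oxidizes fatty acids and activates 4-ipomeanol and other lung toxicants, had the highest median of all 58 rows. It ranged from 11525 in A2 to 36578 in G4, with a median of 22514. Next came Cyp2b10, the mouse name of a phenobarbital-responsive enzyme of foreign compound metabolism. It ranged from 9526 in A2 to 26151 in B6, with a median of 20446. Its relatives Cyp2b19, Cyp2b13, Cyp2b23 and Cyp2b9 had medians of 6570, 4168, 2966 and 1512. Of these 5 names only Cyp2b13 is listed in rat RefSeq, as a synonym of Cyp2b21.

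The 5 Cyp2b rows kept nearly fixed proportions in all 24 samples. Cyp2b19 lay between 0.311 and 0.350 times the Cyp2b10 value, a coefficient of variation of 3.20% over the samples. For Cyp2b13 the ratio ran from 0.193 to 0.223, for Cyp2b23 from 0.139 to 0.174 and for Cyp2b9 from 0.0700 to 0.0802, with coefficients of 4.12%, 4.50% and 3.93%. Ratios to rows outside the subfamily moved far more: Cyp4b1 to Cyp2b10 had a coefficient of 16.4%, Cyp2s1 to Cyp2b10 of 20.7% and Cyp2a5 to Cyp2b10 of 108%. The Cyp2a pair behaved like the Cyp2b rows to a lesser degree, since Cyp2a4 stayed between 0.274 and 0.380 times Cyp2a5 (8.42%) while both rows ranged widely. These are descriptions of 24 samples with no test. Whether each such row measures a gene of its own, or reads of a single rat gene were spread over several mouse names, was not tested. Below, the Cyp2b rows are counted by name but not treated as separate observations.

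**Figure D2:**
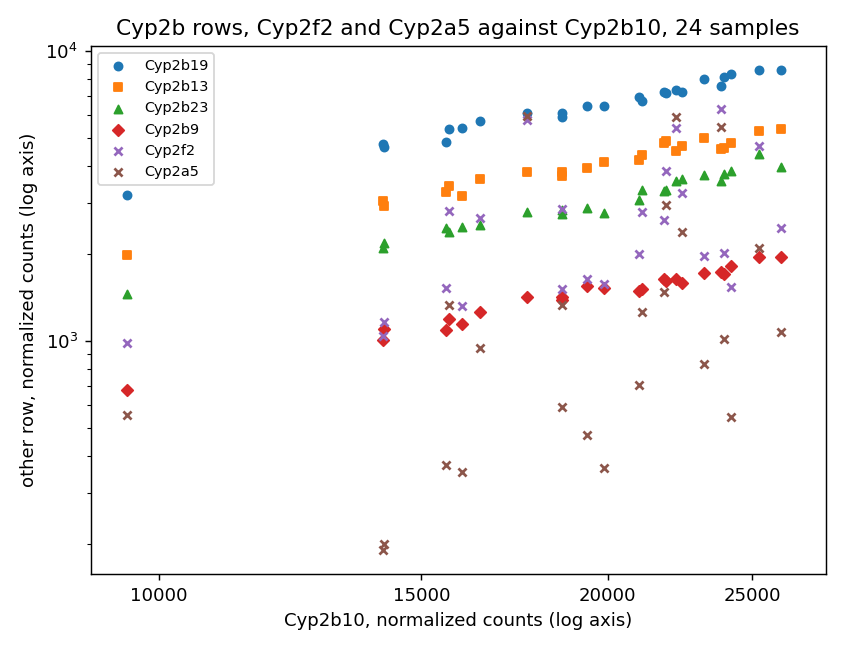
Normalized counts of 6 rows (vertical log axis) against Cyp2b10 (horizontal log axis), with 1 point per sample and 24 samples. The 4 other Cyp2b rows follow parallel lines with Cyp2b10, whereas Cyp2f2 and Cyp2a5 scatter, Cyp2a5 from 190 to 5964.

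More xenobiotic rows had medians near or above 1000 normalized counts. Cyp2s1, an epithelial enzyme found largely outside the liver, ranged from 1558 to 4640 with a median of 3081. Cyp2f2, whose rat RefSeq counterpart by synonym is Cyp2f4 and which activates naphthalene and styrene in club cells, ranged from 983 to 6316 with a median of 2226. Cyp2e1, which oxidizes ethanol, benzene and other small molecules, ranged from 595 to 4352 with a median of 1789. Cyp2a5, a mouse name for an enzyme that hydroxylates coumarin and activates tobacco nitrosamines, ranged from 190 to 5964 with a median of 981. Cyp2a5 and Cyp2a4 had the widest spread between samples among the rows with a mean of at least 100.

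Of the rows for lipid and vitamin substrates, several were at a middle level. Cyp2u1, which hydroxylates long-chain fatty acids, had a median of 812 and a narrow range, 671 to 1028. Cyp2j6 and Cyp2j9, of a subfamily that makes epoxides of arachidonic acid, had medians of 667 and 405, and Cyp2c23, an epoxygenase of the kidney, had a median of 282. The Cyp4f subfamily, which includes enzymes that inactivate leukotriene B4, contributed 9 rows, all with a mean of at least 10, led by Cyp4f13 (median 745) and Cyp4f17 (524). Cyp4f18, a leukotriene B4 hydroxylase of neutrophils, had a median of 108 and reached 273 in B3. Cyp4v3, a fatty acid hydroxylase, had a median of 316. Cyp2r1, which makes 25-hydroxyvitamin D, had a median of 70.8.

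Most Cyp2c and Cyp3a rows had low values. Of the Cyp2c rows, 5 (Cyp2c29, Cyp2c37, Cyp2c39, Cyp2c55 and Cyp2c70) had means of 1.08 to 2.35 normalized counts, and among the 4 Cyp3a rows only Cyp3a13 reached a mean of 10, with a median of 401. The other Cyp3a rows, Cyp3a25, Cyp3a57 and Cyp3a59, had means of 1.21 to 2.16. Cyp2c29, Cyp2c37 and Cyp2c39 were each highest in B6, at 12, 11.0 and 9.01. The liver marker list of 8 genes, all in the table, summed to between 44.1 and 398 normalized counts, and its albumin gene Alb had a median of 26.4 and was listed at 0 at its lowest. In numbers 1, 2 and 3 the list summed to 72.3 to 97.6, 54.7 to 208 and 44.1 to 131. In numbers 4, 5 and 6 it summed to 89.6 to 398, 68.6 to 108 and 127 to 254. Its highest sum was in A4. Its part in the P450 differences was not tested.

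Facts of the whole table that touch these results are few. The summed normalized counts were 61717516 to 66007148 per sample, adjusted by the authors, so the reads per sample are unknown. The lung markers were present: Scgb1a1 of club cells ranged from 303417 to 652541. Libraries A4 and B4 stood apart in markers of other tissues: the skeletal muscle list of 7 genes summed to 76691 in A4 and 18859 in B4 against a median of 2032 over all samples, and a squamous list of 7 genes to 18728 in A4 against a median of 1376. A heart muscle list of 6 genes was highest in A4, at 42769, and reached 19226 in G5, against a median of 2259. In B and C it was at most 6644 and 7000. A red blood cell list, with 6 of its 7 genes in the table, summed to 126084 to 1083302. In A, B, C and G its highest sums were 1083302, 868540, 773864 and 313644, with overlapping ranges. It summed to 313644 to 780655 in number 6, 161911 to 260155 in number 1 and 126084 to 249452 in number 2. In numbers 3, 4 and 5 it ran from 159472 to 352871, 148511 to 1083302 and 182877 to 753197. Its part in the P450 differences was not tested. Counts of calls are given with and without A4 and B4 where that changed them by more than 1.5 times, which it did for no count of P450 rows. In bulk tissue fewer cells of a type and less RNA per cell cannot be told apart.

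The next comparison asked whether any of these rows followed a letter, and G in particular. In the fit of letters, which has no term for the sample number, no P450 row did so at the threshold used, an adjusted p-value under 0.05 over all 30667 genes. In the limma F test over the 4 letters 0 of 58 rows passed, where 0.00652% of all genes did, and 4 rows (6.90%) had an unadjusted p under 0.05, where 3.91% of all genes did. The 4 were Cyp4b1, Cyp2j12, Cyp4a32 and Cyp2g1, the last an enzyme of olfactory tissue with a mean of 2.50 normalized counts. For G against the mean of A, B and C, limma called 0 of 58 rows, where 0.00652% of all genes were called. At an unadjusted p under 0.05 there were 7 rows (12.1%), where 6.47% of all genes were. Of these, 5 were higher in G, where 2.94% of all genes were, and 2 were lower, where 3.53% were. Against A, B and C singly limma called 0, 0 and 0 rows (0.00652%, 0.00326% and 0.00652% of all genes), with 3, 3 and 5 at an unadjusted p under 0.05 (8.15%, 3.67% and 4.03% of all genes). Among the 42 rows with a mean of at least 10 the median log2 difference of G from the mean of the others was 0.08, and 29 were above 0. Of all 58 rows 38 were above 0 (65.5%), where 49.6% of all genes were. All 6 G samples lay above the 18 others for 0 of 58 rows, where 0.0% of all genes did, and below them for 0, where 0.0196% did. The G contrasts share the G samples, so they are not independent of each other. An alternative fit with the sample number as a block called Cyp4b1 and Cyp2j12 in some G contrasts, as given in the last section. No label states that equal numbers pair the samples. Differences between numbers, described below, stay in the residual spread of a fit without that block. Its 0 calls therefore do not show that no row follows G.

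Cyp4b1 came nearest to following G. Letter A had a lowest, median and highest value of 11525, 21873 and 32153 normalized counts. In B these were 17376, 22160 and 29459, and in C 15516, 21418 and 27468. In G they were 22708, 31412 and 36578. G was thus the highest letter by median, with ranges that overlap those of the other letters. The log2 difference of G from the mean of the others was 0.49 (SE 0.15, limma adjusted p = 0.471). Against A, B and C singly it was 0.52, 0.43 and 0.52, each with an SE of 0.18 and an adjusted p of 0.441, 1 and 1. Within each number G was above A in 5 of 6 cases, above B in 6 and above C in 6. It was the highest of the 4 letters in 5 of 6 numbers, as 1.57% of all genes were.

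Cyp2j12, a mouse name in the epoxygenase subfamily that rat RefSeq does not list, leaned the other way. Its lowest, median and highest values were 91.5, 127 and 166 normalized counts in A. They were 59.0, 132 and 157 in B, and 88.4, 105 and 127 in C. In G they were 58.5, 78.6 and 106, so the ranges overlap. The log2 difference from the mean of the others was -0.53 (SE 0.17, limma adjusted p = 0.510). Cyp2j12 was lower in G than in each other letter in 6 of 6 numbers, a pattern that 0.3% of all genes had, while 1.9% were lowest in G in at least 5 of 6 numbers. Cyp2j7 of the same subfamily, at a mean of 14.2, had a log2 difference of -0.53 (adjusted p = 0.697). The 2 larger Cyp2j rows had G means near the others: 638 ± 95.4 (SD, n = 6) for Cyp2j6, against 622 to 657, and 382 ± 42.4 for Cyp2j9, against 391 to 423.

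Cyp4a10, Cyp4a31 and Cyp4a32, of the subfamily of fatty acid hydroxylases induced through PPARα, also had higher means in G without passing the threshold. Cyp4a10, by synonym rat Cyp4a1, averaged 32.3 ± 6.31 normalized counts in the G samples (SD, n = 6). Its means for A, B and C were 24.8 ± 12.5, 25.5 ± 7.41 and 17.6 ± 3.08, which gave a log2 difference of 0.57 (limma adjusted p = 0.678). The differences of Cyp4a31 and Cyp4a32 were 0.89 and 0.84 (adjusted p = 0.757 and 0.653), at means of 11.2 and 9.56. The other of the 4 Cyp4a rows, Cyp4a14, did not share this, with a difference of 0.02 (limma adjusted p = 0.996). Its mean was 15.2 in G and 16.7, 19.0 and 13.8 in A, B and C. In the rat RefSeq annotation Cyp4a genes and Cyp4b1 lie near each other on chromosome 5, in a region with 7 P450 genes that also holds Cyp4x1. Other genes may lie between them. Cyp4x1 had a mean of 3.49, too low to compare. The other row with an unadjusted p under 0.05 and a higher value in G was Cyp3a25, which ranged from 0 to 7.03 normalized counts. The names Cyp4a14, Cyp4a32, Cyp3a25 and Cyp2g1 were picked with their values known.

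For the other abundant rows the differences of G were smaller than the spread within letters. Cyp2b10 averaged 21066 ± 4151 normalized counts in the G samples, and 18242 ± 4512, 19926 ± 4486 and 19555 ± 4093 for A, B and C (SD, n = 6; limma adjusted p = 0.922). Cyp2s1 had 2758 ± 839, 3347 ± 1061, 3061 ± 684 and 3335 ± 850 in the order A, B, C, G (adjusted p = 0.937), and Cyp2e1 1605 ± 609, 1978 ± 1231, 1898 ± 660 and 1609 ± 622 (adjusted p = 0.961). For Cyp2f2 and Cyp2a5 the spread within a letter was large, so that G means of 3330 ± 1816 and 1845 ± 1856 could not be told from the others (adjusted p = 0.873 and 0.924). Cyp2u1, whose promoter holds 2 motif matches, had 801 ± 77.7, 885 ± 85.6, 832 ± 108 and 808 ± 102.

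The CYP1 family, whose members are classical targets of the aryl hydrocarbon receptor and which lies outside the name pattern, had lower means in G. Cyp1a2 averaged 194 ± 77 normalized counts in the G samples and 408 ± 279, 552 ± 271 and 369 ± 114 for A, B and C (SD, n = 6), a log2 difference of -1.13 (SE 0.33, limma adjusted p = 0.471). The differences of Cyp1a1 and Cyp1b1 were -1.06 and -0.71 (adjusted p = 0.502 and 0.471), and that of Ahrr was -2.37 (adjusted p = 2.04e-06). Of these 4 genes only Ahrr passed the threshold.

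**Figure D3:**
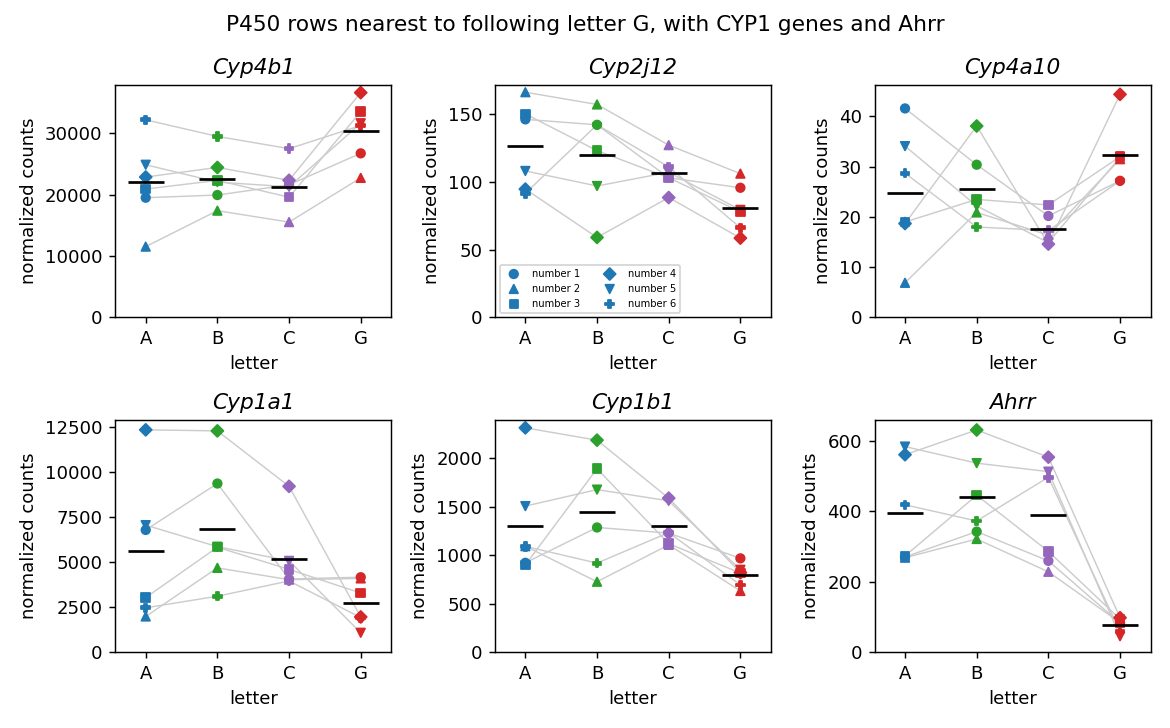
Normalized counts (vertical axes from 0) by letter for Cyp4b1, Cyp2j12 and Cyp4a10 and for the comparison genes Cyp1a1, Cyp1b1 and Ahrr; marker shapes are sample numbers, grey lines join samples of the same number, and black bars are means of 6. G means are 30381 for Cyp4b1 and 80.5 for Cyp2j12, with ranges that overlap the other letters; Ahrr in G does not overlap them.

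Partners and regulators of P450 enzymes were read from a fixed list of 20 genes, all in the table. In G against the mean of the others limma called 0 of 20 (0.00652% of all genes), with 4 at an unadjusted p under 0.05 (6.47% of all genes), and the median log2 difference was -0.02. The 4 were Nfe2l2, which encodes NRF2, with a difference of -0.22 (adjusted p = 0.471), Rxra, a shared receptor partner, with -0.12 (adjusted p = 0.728), and Nr1i2 and Nr1i3. Nr1i2 encodes PXR and Nr1i3 CAR, the receptors that induce Cyp3a and Cyp2b enzymes, and both were scarce. Nr1i2 had 46.3 ± 15.7 normalized counts in G and 29.4 to 31.5 as means of the other letters, a log2 difference of 0.63 (limma adjusted p = 0.653). Nr1i3 had 31.2 ± 6.81 in G and 19.2 to 22.4 elsewhere, a difference of 0.64 (adjusted p = 0.639). Por, the reductase, had a difference of 0.16 (adjusted p = 0.902).

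The table was then read by sample number, which separates these rows far more than the letter does. Among the 6 numbers, with the letter as a term, the limma F test called 22 of 58 rows (37.9%), where 31.5% of all genes were called. Among rows and genes with a mean of at least 10 it called 22 of 42 (52.4%), where 42.6% of all such genes were called. These shares lie near those of the whole table, so differences between numbers are a property of the samples in general. Over the 42 rows the median share of variance lying between numbers was 52.9% and between letters 6.98%. Over the 21922 genes with a mean of at least 10 the medians were 45.2% and 9.08%. With no effect at all, the 5 degrees of freedom of the numbers would take 21.7% and the 3 of the letters 13.0%. The number share exceeded the letter share in 41 of the 42 rows. This count was not made over all genes, so it is not read as particular to P450 rows. Cyp4b1 (53.2% and 33.2%) and Cyp2j12 (45.8% and 34.0%) had the highest letter shares of these 42.

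**Figure D4:**
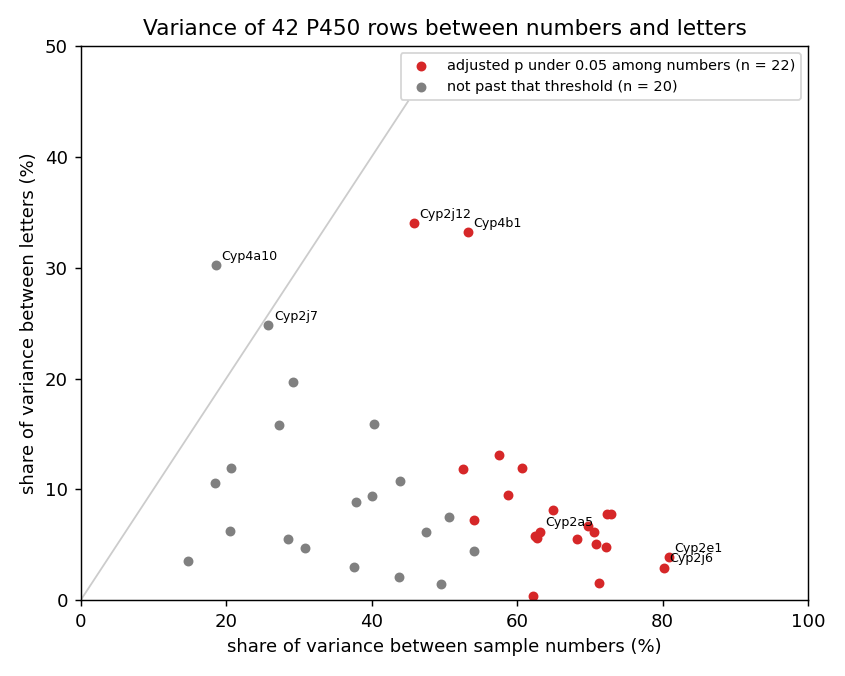
Share of the variance of log2 values between sample numbers (horizontal axis, %) and between letters (vertical axis, %) for the 42 P450 rows with a mean of at least 10; red points passed the F test over numbers, and the grey line marks equal shares. Of the 42 points 41 lie below the line and Cyp4a10 above it, a count not made over all genes. Cyp2e1 (80.9% between numbers) and Cyp2j6 (80.2%) lie farthest right, and Cyp4b1 and Cyp2j12 highest.

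The 22 rows fell into a few patterns by number. Of these, 11 had their highest mean of log2 values in number 6, among them all 5 Cyp2b rows, Cyp4b1, Cyp2e1, Cyp2j6 and Cyp2d22, and 11 had their lowest in number 2. The same counts were not made over all genes called, so they are not read as particular to P450 rows. The 5 Cyp2b rows moved together and are not separate observations. Cyp4b1 had 11525, 17376, 15516 and 22708 normalized counts in A2, B2, C2 and G2 and 32153, 29459, 27468 and 31223 in A6, B6, C6 and G6 (limma adjusted p = 0.000162 among numbers). No sample of number 2 reached any of number 6. Cyp2b10 likewise had 9526, 14170, 15571 and 15650 in number 2 and 21890, 26151, 23221 and 24197 in number 6 (adjusted p = 0.000491). Cyp2b19, Cyp2b13, Cyp2b23 and Cyp2b9 had adjusted p-values from 0.000183 to 0.00109.

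Cyp2e1 had the smallest p-value of the P450 rows among numbers (limma adjusted p = 2.91e-05). It had 595, 1089, 950 and 879 normalized counts in A2, B2, C2 and G2 and 1330, 1276, 1183 and 1050 in number 1. In number 6 it had 2266, 4352, 2533 and 2549. All samples of number 6 lay above all of numbers 1 and 2. Cyp2j6 ran from 399, 557, 543 and 462 in number 2 to 685, 751, 744 and 747 in number 6 (adjusted p = 0.000297).

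Another pattern was shared by Cyp2a5, Cyp2a4, Cyp2f2, Cyp2s1 and Cyp4f39, the 5 rows with their highest mean in number 4. Cyp2a5 had 5964, 5897, 1475 and 2084 normalized counts in A4, B4, C4 and G4 and 364, 354, 190 and 705 in number 3 (limma adjusted p = 0.00217, and 0.0138 without A4 and B4). G5 was high too, at 5464, so high values were not confined to number 4. C4 and G4 lay within the range of number 5, 1019 to 5464. Cyp2a4 had 2050, 1779, 480 and 725 in A4, B4, C4 and G4 and 370, 731, 283 and 1708 in number 5. For both Cyp2a rows number 4 thus stood above number 5 through A4 and B4, the libraries with markers of other tissues. Cyp2f2 had 5765, 5437, 2613 and 4683 in number 4 and 1571, 1322, 1042 and 1997 in number 3 (adjusted p = 0.00355), with its highest value of 6316 in G5. Cyp2s1 had 3769, 4640, 3292 and 4304 in number 4 and 2013, 1730, 2653 and 2287 in number 1, with no overlap (adjusted p = 0.00128). Cyp4f39, an enzyme of very long fatty acids in the skin barrier, ranged from 41.1 in B1 to 138 in A4 (adjusted p = 0.00660). In rat RefSeq, Cyp2s1, the Cyp2b genes, Cyp2g1, the Cyp2a genes, Cyp2f4 and Cyp2t1 lie in a region of chromosome 1 with 15 P450 genes. Other genes may lie between them. The rows named for that region did not share a pattern across numbers: the Cyp2b rows were highest in number 6, and Cyp2a5, Cyp2a4 and Cyp2f2 in number 4. Cyp2t4, a mouse name that rat RefSeq does not list, was not called and had its highest value, 1128, in A4.

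Airway markers differed by number as well. The club cell list of 7 genes, all in the table, summed to 586913 to 724624 normalized counts in number 4 and to 520269 to 635537 in number 5. In numbers 1, 2, 3 and 6 it summed to 401008 to 492733, 339272 to 466501, 412358 to 518741 and 458776 to 584274. Its members ranged from Scgb1a1, with a median of 475632, to Cckar, with a median of 17.9, and none was at 0 in any sample. Ciliated cell markers (6 of the 7 listed genes have a row) summed to 37970 to 48440 in number 2 and 58350 to 69697 in number 4. Alveolar type 1 markers, 6 genes, summed to 192814 to 264341 in number 2 and to 312673 to 337121 in number 1, where Cyp2e1 was also low. In number 6 they summed to 297758 to 324744, and in numbers 3, 4 and 5 to 291030 to 299970, 262855 to 327697 and 283317 to 335933. Macrophage markers, 6 genes, summed to 32893 to 42322 in number 3 and to at most 27639 in each other number. Neutrophil markers, 6 genes, ranged from 5240 to 31910 in number 2 and from 2835 to 16627 over the other numbers. Endothelial markers, 6 genes, summed to 175605 to 270293 in number 2, 308877 to 341392 in number 1 and 278767 to 331112 in number 6. Alveolar type 2 markers, 8 genes, summed to 1424087 to 1874316 in number 2 and 1538994 to 1842724 in number 3. In number 6 they summed to 1253051 to 1357628. The part of these cells in the P450 differences was not tested. Between letters the club cell sums overlapped widely, at 339272 to 624816 in A, 356938 to 724624 in B, 412358 to 586913 in C and 412307 to 635537 in G.

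**Figure D5:**
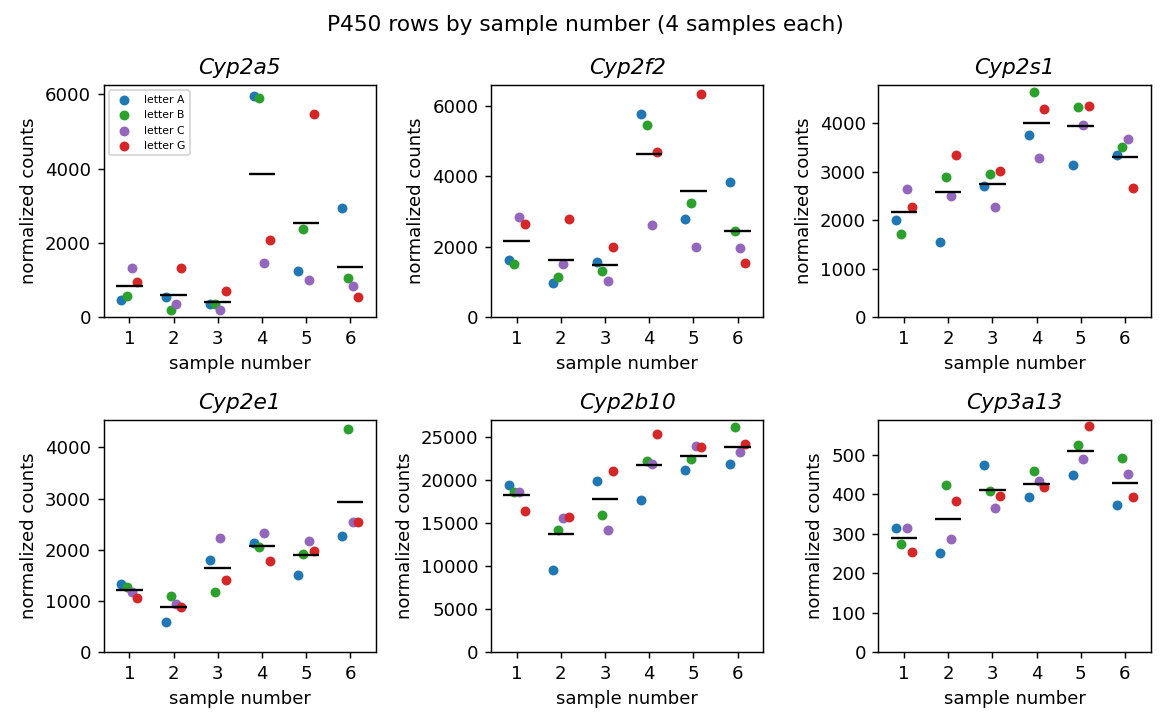
Normalized counts (vertical axes from 0) of 6 P450 rows by sample number, with 4 samples per number coloured by letter and black bars at the mean. Cyp2a5 and Cyp2f2 are highest in number 4 with G5 beside it, Cyp2e1 and Cyp2b10 have their lowest means in number 2 and highest in number 6, and Cyp3a13 is highest in number 5.

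The remaining rows called among numbers each had their own order. Cyp3a13, whose rat counterpart by synonym is Cyp3a9, a steroid and drug hydroxylase, had 447, 525, 488 and 572 normalized counts in number 5 and 315, 274, 313 and 254 in number 1, with no overlap (limma adjusted p = 0.00110). Cyp4v3 had 331, 451, 486 and 480 in number 3 and 182, 280, 226 and 328 in number 2, with no overlap (adjusted p = 0.00384). Cyp2d9 and Cyp2d10, low rows with means of 32.9 and 15.0, were highest in number 2, at 74.0, 72.6, 35.7 and 43.9 for Cyp2d9 (adjusted p = 0.0193). Cyp2d22, by synonym rat Cyp2d4, was lowest there, at 498, 748, 677 and 807 (adjusted p = 0.000881). Cyp2j9, Cyp2d9 and Cyp4f37 were the calls most often lost when 1 sample was left out. Without A2 their adjusted p-values were 0.103, 0.0881 and 0.0562, and Cyp4f37 (0.0466 with all samples) lost its call 17 times when each of the 24 samples was left out in turn. Of the partner list, 14 of 20 genes differed among numbers, where 31.5% of all genes did and 42.6% of those with a mean of at least 10. Por, with an adjusted p of 5.26e-05, had means of 22664 in number 3 and 21851 in number 4 against 14300 in number 2.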

How the data were processed

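Lung mRNA of 24 rat samples was measured by Illumina sequencing, per the labels. The values the authors deposited are a signal per gene in 1 table. They are read here as normalized counts, because they are not whole and sum to similar totals in each sample. The submitters' processing notes name STAR and the mouse build GRCm38, with no role given. The counting tool, annotation, normalization and treatment of reads shared by paralogs are not given in the sources used here. Row names have mouse form, so rat reads that matched mouse genes poorly may be missing, and close paralogs are uncertain.

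The letter of a title was taken as the group. Genes with a mean of at least 0.5, which all 30667 rows had, were fitted on log2(value + 1) with limma-trend (limma 3.58.1, R 4.3.3). The fit had 4 letter means over 24 samples. The test among numbers had the letter as a term. P-values are two-sided and Benjamini-Hochberg adjusted over all 30667 genes, with a threshold of 0.05. The pseudocount understates differences of low rows. No counting error is given, as depth before normalization is unknown, and count models were not used.

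Named rows were the 12 highest medians (no length correction, as no transcript lengths were used), every row called, the 5 smallest p-values per main test among rows with a mean of at least 10, and preset lung enzymes. Other rows named for their level were chosen after their values were seen. The P450 rows and lists were chosen with earlier results of these data known. Names were matched to rat RefSeq (GRCr8), which also gave the promoter sequences. Alternatives were the pseudocount, filters, 2 scalings, robust empirical Bayes, the number as a block, pairwise fits and leaving out each sample. Leaving out A4 with B4, and all samples of a number, were added after seeing the data.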

Additional observations from a re-analysis of the deposited data

Results flagged for a closer look

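Dixon's criterion was applied to the named rows within each letter: a sample counts as far from the rest if the distance to its neighbour is too large a share of the range of the 6 values. It was met in 15 of 104 groups of 6. At 1 group in 20 that would be about 5.2 for independent rows picked without regard to their values. Many of these rows were picked because they differed among numbers, and each group of 6 holds 1 sample of each number. Rows that move together also count more than once, so the 15 cannot be set against the 5.2. No cause was tested.

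Sample A2 accounts for 8 of the 15. Its Cyp2b rows were low: Cyp2b10 had 9526 normalized counts against 17661 to 21890 in the other A samples, Cyp2b19 3195 against 6100 to 7174, Cyp2b13 1981 against 3824 to 4876, Cyp2b23 1455 against 2760 to 3317, and Cyp2b9 676 against 1416 to 1613. Cyp2j9 was low too, at 272 against 424 to 511. Cyp2d9 and Cyp2d10 were high in A2, at 74.0 and 30.6 against at most 27.9 and 12.3. A2 also had the highest neutrophil marker sum, 31910 against a median of 6047 over all samples, and the lowest alveolar type 1 sum, 192814 against a median of 300233.

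G2 was high in Cyp2d9 (43.9, others 29.0 to 29.3) and Cyp2d10 (32.3, others at most 16.5) and low in Cyp2d22 (807, others 971 to 1064). G5 was high in Cyp2a5 (5464, others 545 to 2084) and Cyp2a4 (1708, others 168 to 725). Its heart muscle marker sum was 19226, against a median of 2259 over all samples. Cyp4a10 reached 44.4 in G4, with the others at 27.2 to 32.0. Cyp2e1 reached 4352 in B6, where the other B samples had 1089 to 2063. B6 also had a liver marker sum of 254, against a median of 93.6 over all samples.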

How the results depend on the processing

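No P450 row was called between letters under either scaling, either filter, the pseudocount of 0.1, robust empirical Bayes, fits to the 12 samples of a pair, without A4 and B4, or in any of the 24 fits that left out 1 sample. The sample number as a block changed this. With that block limma called 2 P450 rows in G against the mean of A, B and C, 2 in G against A and 1 in G against C, and it still called 0 in G against B and in the F test over letters. The rows were Cyp4b1 (adjusted p = 0.00830, 0.00921 and 0.0422 in those 3 contrasts) and Cyp2j12 (0.0355 and 0.0323 in the first pair). Without the block the adjusted p of Cyp4b1 in G against the mean of the others lay between 0.367 and 0.830 over the alternatives, and its log2 difference between 0.43 and 0.57. Over all genes the block raised the calls from 2 to 200 in G against the mean of the others, from 2 to 391 against A, from 1 to 2 against B, from 2 to 11 against C and from 2 to 12 in the F test. The F test over letters also gave 1 gene under each scaling and without A4 and B4, and G against A gave 5 and G against C 1 in the fit to its own pair. Equal numbers were not treated as pairing the samples, since no label states a pairing. The deviations of same-number samples of G correlated at -0.045 to 0.486 with A, 0.091 to 0.514 with B and 0.029 to 0.433 with C. Those correlations exceeded 0.1 in 4, 5 and 4 of 6 pairs.

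Among numbers the count of 22 P450 rows ran from 19 to 22 when 1 sample was left out. It was 20 with no replicate block, that is with the number alone, 20 without A4 and B4, and 17 without the samples of number 2, where Cyp2d22, Cyp2j12, Cyp2j9, Cyp2d9 and Cyp2d10 were no longer called. Over 5226 refits of single named rows, which include the repeat with no filter, 44 lost a call, 6 gained one, and 0 reversed a call. The scalings moved the median log2 difference of all genes in the G contrasts by at most 0.026. Depth before normalization is unknown, so rows with means under 10 could not be judged.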
